A study of Mus musculus with 18 samples.

Results

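The genes described here are 8 matrix metalloproteinases (MMPs), Mmp1a, Mmp2, Mmp3, Mmp9, Mmp10, Mmp12, Mmp13 and Mmp14, and 2 tissue inhibitors of metalloproteinases (TIMPs), Timp1 and Timp3. They were chosen by name from the 55401 gene identifiers of the count table, and all 10 had an identifier and passed the filter on low counts in both genetic series. Their RNA was measured by RNA-seq in 18 cultures of mouse embryonic fibroblasts (MEFs), primary cells grown from C57BL/6 embryos without head and viscera. The study asked what loss of the ribosomal S6 kinases S6K1 and S6K2, encoded by Rps6kb1 and Rps6kb2, does to cells made senescent by oncogenic RAS. There were 6 groups of 3 libraries, in 2 genetic series of 9 libraries each. In the S6K1 series, S6K1 wild-type (WT) cells carried an empty retroviral vector (EV) or a vector for constitutively active HRAS (RAS), and S6K1 knockout (KO) cells carried RAS. In the S6K1/S6K2 series, WT cells carried EV or RAS, and S6K1/S6K2 double knockout (DKO) cells carried RAS. KO or DKO cells with EV were not analysed here, so the loss of S6K could be compared only in cells with RAS. All groups were infected with a retrovirus and selected with puromycin. Per the study's methods, S6K1 WT and KO embryos were littermates, whereas the WT cells of the S6K1/S6K2 series came from WT mothers of an earlier breeding stage than the DKO embryos, so that the loss of both kinases and a difference in breeding cannot be told apart.

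MMPs are zinc-dependent endopeptidases that cut collagens, proteoglycans and other proteins of the extracellular matrix, and most are secreted as inactive proenzymes that other proteases activate. TIMPs bind active MMPs and block them. Several MMPs belong to the senescence-associated secretory phenotype, the set of proteins that senescent fibroblasts release, and stromelysins and collagenases are well-known targets of RAS and AP-1 signalling.

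The total count per library lay between 8319445 and 14402442. As a check of the labels, Rps6kb1 was at 61.6, 70.9 and 74.6 CPM (normalised counts scaled to a library total of 1000000) in WT RAS cells of the S6K1 series and at 23.6, 31.3 and 37.0 CPM in KO RAS cells, and Rps6kb2 was at 24.1 to 28.9 CPM in WT RAS and 2.68 to 3.04 CPM in DKO RAS. All 12 fibroblast markers were detected, with a summed level of 23928 to 54352 CPM per library. The 18 macrophage markers, none of them at 0 in all libraries, were also detected, and their summed level differed between cultures of the same group. It was 3935, 3098 and 811 CPM in replicates 1, 2 and 3 of S6K1 WT EV, 4312, 3887 and 853 CPM in S6K1 WT RAS, and 995, 784 and 283 CPM in the KO cells. The S6K1/S6K2 series had 1717, 190 and 250 CPM in WT EV, 1168, 195 and 289 CPM in WT RAS, and 278, 79.9 and 106 CPM in DKO RAS. Replicates 1 and 2 of the S6K1 WT cultures and replicate 1 of the S6K1/S6K2 WT cultures thus stood apart. In bulk RNA, fewer cells of a type and less RNA per cell cannot be told apart.

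Of the members, 5 (Mmp13, Mmp12, Mmp3, Mmp1a and Mmp10, in this order) lie in a cluster of 10 MMP genes on mouse chromosome 9 that spans 427 kb in the RefSeq annotation of GRCm38.p6. The other 5 lie elsewhere. Of the 10 members, 8 had a promoter entry in RefSeq (GRCm38.p6), and Mmp2 and Mmp9 had none. The 250 bases before each annotated start were searched for TGANTCA, the AP-1-type element, which reads the same on both strands. It was present in 6.75% of all 32851 promoter entries. Among the members it was found in 5 of the 8, the 5 genes of the cluster, and not in Mmp14, Timp1 or Timp3. Here a gene was counted if any of its entries held a match, whereas the 6.75% is a share of entries, so the units differ. Mmp12 and Mmp7 each also have an entry without a match. Of 12 other MMP genes with an entry it was found in 3, Mmp1b, Mmp7 and Mmp20, which lie in the same cluster, and of these Mmp7 had 3 counts or fewer and Mmp20 had 0 in every library. The 120 bases before the start are shown for these 5 because they are the members whose letters share this element, which is given in capitals. All 5 are on the plus strand.

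Mmp1a, chr9:7464021-7464140: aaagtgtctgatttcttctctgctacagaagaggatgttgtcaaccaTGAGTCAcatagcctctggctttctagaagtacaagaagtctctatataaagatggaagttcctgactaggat
Mmp3, chr9:7445702-7445821: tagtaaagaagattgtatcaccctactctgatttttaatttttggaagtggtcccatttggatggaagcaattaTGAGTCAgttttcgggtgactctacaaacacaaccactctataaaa
Mmp10, chr9:7502222-7502341: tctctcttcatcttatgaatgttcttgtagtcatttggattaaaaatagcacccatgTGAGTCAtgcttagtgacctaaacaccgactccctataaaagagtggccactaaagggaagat
Mmp12, chr9:7347254-7347373: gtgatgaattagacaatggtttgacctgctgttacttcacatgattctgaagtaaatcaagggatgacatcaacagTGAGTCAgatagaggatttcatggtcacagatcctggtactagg
Mmp13, chr9:7272394-7272513: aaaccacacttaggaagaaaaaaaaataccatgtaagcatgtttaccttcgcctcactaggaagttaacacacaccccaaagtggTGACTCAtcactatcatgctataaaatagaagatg

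The element began at position -73 from the start in Mmp1a, -46 in Mmp3, -63 in Mmp10, -44 in Mmp12 and -35 in Mmp13, and its letters were TGAGTCA in the first 4 of these and TGACTCA in Mmp13. Mmp12 had 2 entries, and the entry of its upstream start held no match. AGGAAG, an ETS-type element searched on both strands, was found in 6 of the 8 members and in 29.48% of all entries, and it was not found in the window of Mmp1a or Mmp10. In Mmp12 it was found only in the entry of the upstream start, which is not shown. These matches describe the letters in the window and not binding.

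The make-up of MMP RNA differed between EV and RAS cells. Per length (CPM per kb of exon), Mmp2 and Mmp14, a secreted gelatinase and the membrane-anchored MMP that activates it, together held 86.3% to 92.0% of the RNA of the 8 MMPs in the 3 libraries of S6K1 WT EV and 94.1% to 97.5% in those of S6K1/S6K2 WT EV. In WT RAS cells they held 17.0% to 38.2% and 32.5% to 48.1%. Mmp3 and Mmp10, the stromelysins, which cut proteoglycans and other non-fibrillar matrix proteins and can activate procollagenases, made up 4.41% to 9.19% and 2.15% to 3.86% with EV and 56.5% to 77.3% and 47.2% to 63.7% with RAS. The EV and WT RAS libraries did not overlap in either share in either series. An exact two-sided permutation test gave p = 0.10 for each, the smallest that 3 libraries against 3 can give (adjusted p = 0.286 over 20 such tests). KO RAS and DKO RAS libraries kept the stromelysin-rich make-up, with 47.6% to 65.6% and 61.9% to 67.9% of the 8 MMPs in Mmp3 and Mmp10, and these ranges overlapped those of WT RAS (exact permutation p = 0.30 and p = 0.60). Between same-numbered S6K1 cultures, however, this share was lower in KO RAS in 3 of 3 pairs, at 65.6% against 77.0%, 64.2% against 77.3% and 47.6% against 56.5%, and that of Mmp2 and Mmp14 was higher in 3 of 3. An exact two-sided sign-flip test over the pairs, added after the data were seen, gave p = 0.25 for both shares, the smallest that 3 pairs can give. The 2 shares are parts of the same total and hold most of it. A fall in the one thus goes with a rise in the other, and they are not separate results, here or between EV and RAS.

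**Figure D1:**
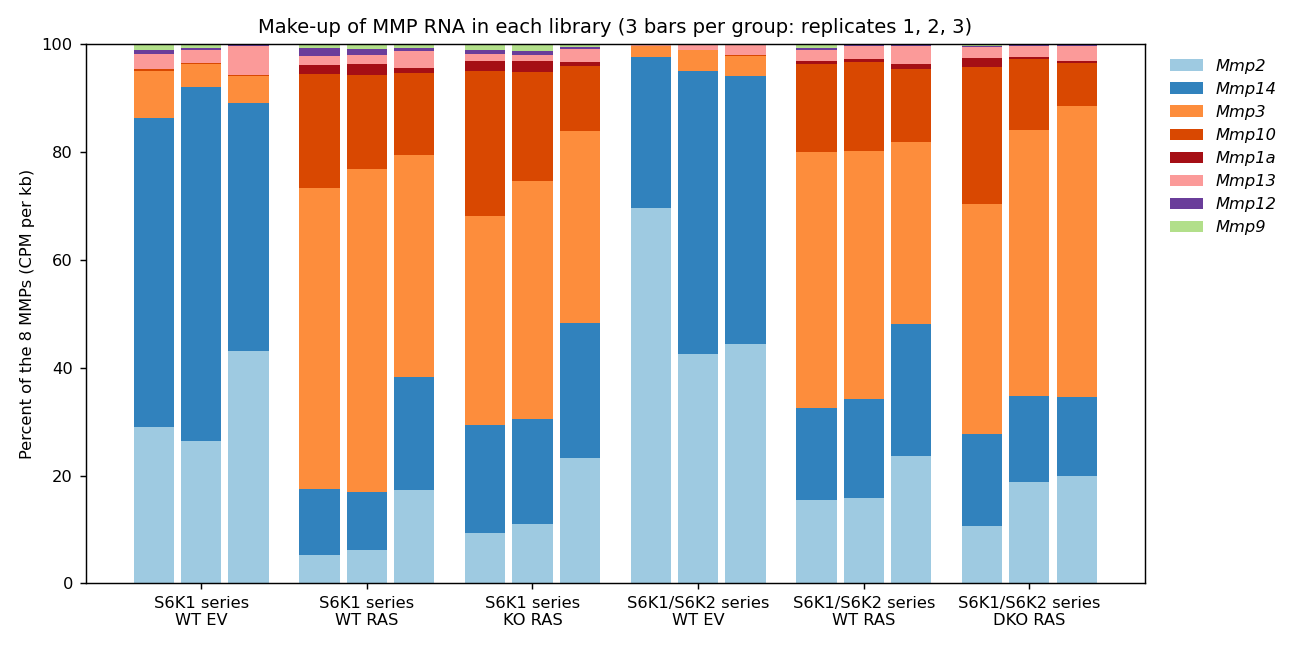
Make-up of MMP RNA in each of the 18 libraries, as percent of the summed CPM per kb of the 8 MMPs, with 3 bars per group for replicates 1 to 3. Mmp2 and Mmp14 (blue) fill at least 86.3% of each EV bar and at most 48.3% of each bar with RAS, where Mmp3 and Mmp10 (orange) fill 47.2% or more.

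The summed level of the 8 MMPs was 820 ± 206 CPM per kb (SD, n = 3) in S6K1 WT EV and 1641 ± 410 in S6K1 WT RAS, and these libraries did not overlap. The S6K1/S6K2 sums were 1248 ± 355 with EV and 1385 ± 255 with RAS, and the libraries overlapped (exact permutation p = 0.10 and p = 0.70). The order of the members also changed. In S6K1 WT EV cells Mmp14 was highest at 449 CPM per kb, followed by Timp1 at 293, Mmp2 at 281, Timp3 at 154, Mmp3 at 47.8, Mmp13 at 31.8, Mmp9 at 4.91, Mmp12 at 2.74, Mmp10 at 2.22 and Mmp1a at 0.0662. Of these neighbours, Timp1 and Mmp2, Mmp3 and Mmp13, Mmp9 and Mmp12, and Mmp12 and Mmp10 overlapped in their libraries. In S6K1 WT RAS cells the order was Mmp3 at 884 CPM per kb, Timp1 at 440, Mmp10 at 297, Mmp14 at 226, Mmp2 at 141, Timp3 at 51.5, Mmp13 at 32.1, Mmp1a at 27.5, Mmp12 at 19.0 and Mmp9 at 12.7. There the libraries of Mmp3 and Timp1, of Mmp10, Mmp14 and Mmp2 in turn, and of the last 4 genes in turn overlapped. Mmp3 was first, with Timp1 overlapping it, in all 4 groups with RAS. The exon lengths behind these values are unions of GENCODE M1 exons, 7237 bases for Mmp12 and 8144 for Timp3, and a shorter expressed transcript would raise a gene in this order.

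Between WT RAS and WT EV, 4 of the 10 members rose and 2 fell in the S6K1 series, where 7.15% of the 14036 genes tested rose and 6.09% fell (edgeR's quasi-likelihood test, adjusted p under 0.05). The S6K1/S6K2 series had 6 that rose and 3 that fell, where 13.5% of the 13881 genes tested rose and 12.7% fell. The median log2 fold change of the members was 0.98 and 1.74, beside 0.0018 and -0.02 for all genes tested. Because the members were chosen with earlier results of these data known, these counts and medians describe them and are no test of the family. Mmp1a, Mmp3 and Mmp10 rose and Mmp14 and Timp3 fell in both series, and these 5 passed the threshold in every alternative that gave them a value in both. With the replicate number as a block, 9 members passed in the S6K1 series, where 36.2% of genes did, and 8 in the S6K1/S6K2 series, where 28.7% did. The block was fitted over all 9 libraries of a series, so same-numbered EV, WT RAS and KO or DKO RAS cultures shared a block. DKO RAS and WT RAS cultures share only a number, so in the S6K1/S6K2 series the block was not purely a pairing of RAS with EV.

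**Figure D2:**
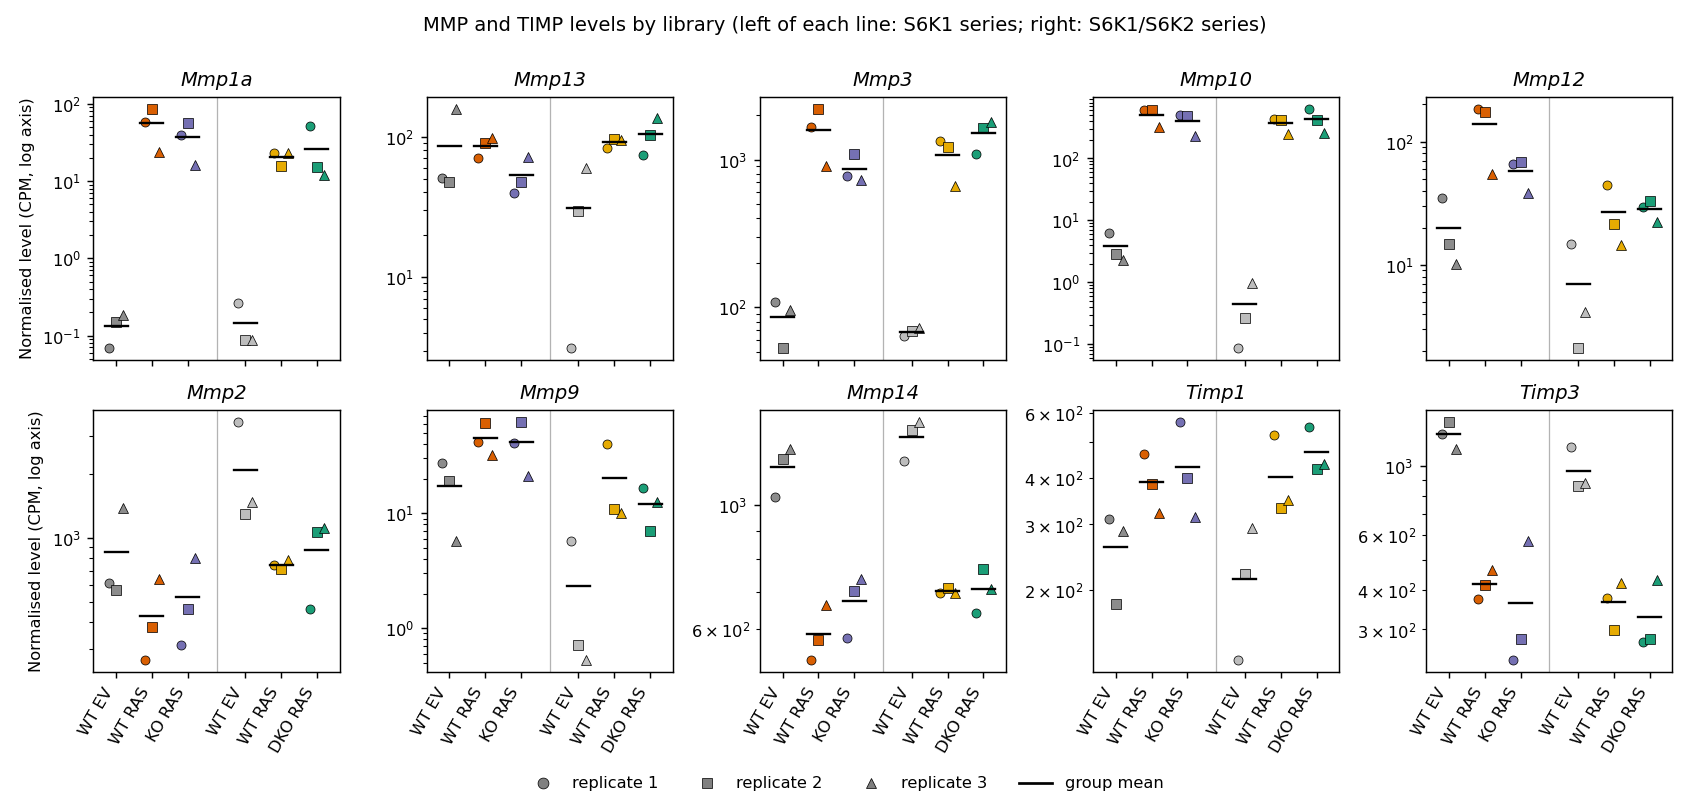
Normalised levels (CPM, log axis, with a scale of its own for each gene) of the 10 members in each library, with a marker shape for each replicate number and a bar for the group mean. Mmp1a reaches 0.262 CPM at most in EV libraries and 12.1 CPM or more with RAS, and Mmp10 6.33 CPM at most and 234 CPM or more, while Mmp14 and Timp3 sit higher in all EV libraries than in any library with RAS of the same series.

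Mmp1a (chr9:7464141-7476869), 1 of the 2 mouse counterparts of the interstitial collagenase MMP1 that cuts fibrillar collagen, was close to undetected without RAS. It had 1, 2 and 2 counts in the S6K1 WT EV libraries and 3, 1 and 1 in those of the S6K1/S6K2 series. With RAS it reached 57.7, 85.3 and 23.8 CPM in S6K1 WT cells and 23.3, 15.5 and 23.3 CPM in S6K1/S6K2 WT cells. All libraries with RAS were far above all EV libraries, and replicate 3 was the lowest of the S6K1 WT RAS libraries. The ratio of summed normalised counts was 433 (95% exact interval 185 to 1334) in the S6K1 series and 144 (61.2 to 444) in the S6K1/S6K2 series, where the intervals cover counting error only. The adjusted p from edgeR was 0.000375 and 0.000403. Its neighbour Mmp1b, a close copy, rose as well, from 15 counts over the 3 EV libraries to 402 in S6K1 WT RAS (adjusted p = 0.00145, edgeR) and from 4 to 133 in the S6K1/S6K2 series (adjusted p = 0.00121, edgeR). How reads shared by such copies were counted is not given in the sources used here, so the split between Mmp1a and Mmp1b is uncertain.

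Mmp13 (chr9:7272514-7283333), the main collagenase of cartilage and bone in the mouse, behaved differently from Mmp1a. In S6K1 WT cells it was at 51.1, 47.2 and 157 CPM with EV and 70.1, 89.6 and 98.2 CPM with RAS. The EV library of replicate 3 was above all 3 RAS libraries, so the groups overlapped. The log2 fold change was 0.02 (95% confidence interval -0.96 to 1.00, adjusted p = 0.985, edgeR). Across the S6K1/S6K2 series Mmp13 was at 3.14, 29.5 and 59.7 CPM with EV and 82.9, 95.5 and 94.7 CPM with RAS. These groups did not overlap, but the EV libraries spread over a wide range and the log2 fold change of 1.56 ± 0.68 (SE) did not pass (adjusted p = 0.118, edgeR). With the replicate block it passed (adjusted p = 0.0460, with a range of 0.00519 to 0.233 over the alternatives, edgeR).

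Mmp3 (chr9:7445822-7455975), stromelysin 1, was at 108, 53.3 and 96.3 CPM in S6K1 WT EV and 1666, 2199 and 906 CPM in S6K1 WT RAS. The S6K1/S6K2 series had Mmp3 at 63.9, 69.1 and 72.6 CPM with EV and 1345, 1223 and 665 CPM with RAS. Replicate 3 was the lowest RAS library in both series and was still far above every EV library. The fold change was 18.5 (95% confidence interval 9.96 to 34.4, adjusted p = 0.000304, edgeR) and 15.7 (9.88 to 25.0, adjusted p = 8.85e-05, edgeR). Its mean level per length was the highest of the 10 members in every group with RAS, but the libraries of Timp1 overlapped it in each. In KO RAS the means of Mmp3 and Timp1 were both 481 CPM per kb.

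Mmp10 (chr9:7502342-7510242), stromelysin 2, lies next to Mmp1a and changed over a wider range than Mmp3. It was at 6.33, 2.83 and 2.29 CPM in S6K1 WT EV and 604, 611 and 321 CPM in S6K1 WT RAS. With EV in the S6K1/S6K2 series it had 1, 3 and 11 counts, or 0.0873, 0.265 and 0.962 CPM, against 441, 422 and 253 CPM with RAS. No EV library came near a RAS library, and replicate 3 was again the lowest with RAS. The fold change was 132 (57.8 to 300.0, adjusted p = 0.000127, edgeR) in the S6K1 series and 825 (321 to 2124, adjusted p = 3.57e-05, edgeR) in the S6K1/S6K2 series, where it rests on few EV counts.

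Mmp12 (chr9:7344397-7360461), the macrophage elastase, was at 34.7, 14.8 and 10.1 CPM in S6K1 WT EV and 183, 175 and 54.1 CPM in S6K1 WT RAS. S6K1/S6K2 WT cells had Mmp12 at 14.8, 2.12 and 4.11 CPM with EV and 44.1, 21.3 and 14.4 CPM with RAS. The groups did not overlap in the S6K1 series. There was overlap in the S6K1/S6K2 series, where the EV library of replicate 1 lay above the RAS library of replicate 3. The log2 fold change was 2.79 ± 0.56 (SE, adjusted p = 0.0110, edgeR) and 1.92 ± 0.62 (adjusted p = 0.0460, edgeR). Without S6K1 WT EV replicate 2 the adjusted p was 0.0538 (edgeR), and in the S6K1/S6K2 series the call was lost without WT EV replicate 2 or 3 or WT RAS replicate 1 or 2, or with the 6 libraries of the comparison alone, with adjusted p up to 0.146 (edgeR). In both series replicate 1 was among the high cultures for Mmp12 and for the summed macrophage markers. Of the markers, 0 of 18 passed between RAS and EV in the S6K1 series and 0 of the 17 tested in the S6K1/S6K2 series (0 and 0 at an unadjusted p under 0.05, edgeR), with median log2 fold changes of 0.05 and -0.75. With the replicate block, 5 markers rose and 4 fell in the S6K1 series and 6 fell in the S6K1/S6K2 series, where 36.2% and 28.7% of all genes passed in either direction. In all 3 same-numbered pairs of each series Mmp12 was higher with RAS.

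Mmp9 (chr2:164940326-164955850), gelatinase B, which cuts denatured and type IV collagen and is abundant in macrophages, neutrophils and osteoclasts, was at 27.2, 19.2 and 5.77 CPM in S6K1 WT EV and 41.3, 61.5 and 32.2 CPM in S6K1 WT RAS. S6K1/S6K2 WT cells had Mmp9 at 5.76, 0.707 and 0.524 CPM with EV and 40.0, 11 and 10.1 CPM with RAS. The EV libraries highest for Mmp9, replicates 1 and 2 of the S6K1 series and replicate 1 of the S6K1/S6K2 series, were those highest for the macrophage markers. The groups did not overlap in either series. The log2 fold change of 1.36 ± 0.54 (SE) in the S6K1 series did not pass (adjusted p = 0.139, edgeR), and that of 3.12 ± 0.86 in the S6K1/S6K2 series did (adjusted p = 0.0253, edgeR). In the S6K1 series it passed with the replicate block (adjusted p = 0.00259, with a range of 0.00259 to 0.353 over the alternatives, edgeR), and in the S6K1/S6K2 series the call was lost without WT EV replicate 2 or WT RAS replicate 1 (adjusted p = 0.0813 and 0.0857, edgeR) and with the 6 libraries of the comparison alone (0.0535). Of 8 neutrophil markers, 5, with Mpo and Elane among them, had 3 counts or fewer in every library, as had 2 of 6 osteoclast markers, Ocstamp and Dcstamp. Other neutrophil markers, Ly6g and S100a8, rose with RAS in both series, Ly6g from 1, 1 and 0 counts to 54, 61 and 75 in the S6K1 series and from 0, 0 and 1 to 108, 98 and 107 in the S6K1/S6K2 series, and S100a8 from 0 in all EV libraries to between 7 and 23 counts in the WT RAS libraries. Csf3r, the remaining neutrophil marker, did not rise. It had 29, 19 and 5 counts in S6K1 WT EV and 10, 8 and 5 in S6K1 WT RAS. In the S6K1/S6K2 series it had 12, 2 and 2 counts with EV and 2, 0 and 3 with RAS. The part of macrophage or neutrophil RNA in the levels of Mmp9 and Mmp12 was not tested.

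**Figure D3:**
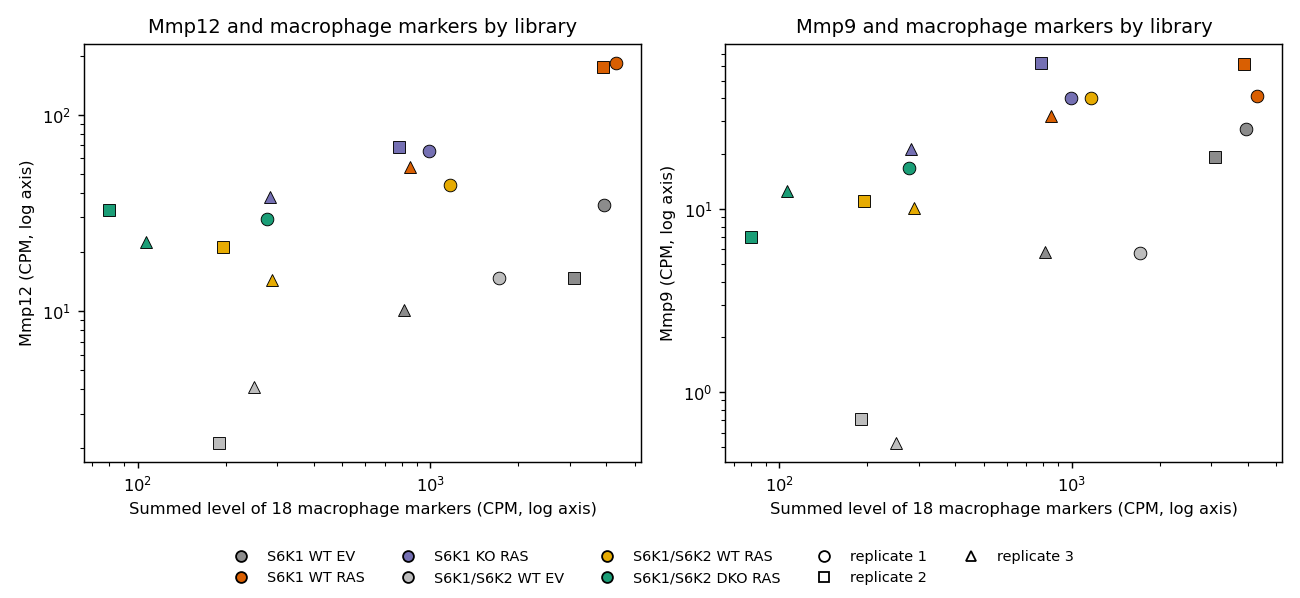
Level of Mmp12 (left) and Mmp9 (right) against the summed level of 18 macrophage markers in each library (CPM, log axes), with colours for the groups and shapes for replicate numbers. In S6K1 WT replicate 3, for example, Mmp12 is at 10.1 CPM with EV and 54.1 CPM with RAS, with marker sums of 811 and 853 CPM. The part of macrophage RNA in these levels was not tested.

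Mmp2 (chr8:92827290-92853421), gelatinase A, the constitutive gelatinase of fibroblasts, was at 612, 568 and 1385 CPM in S6K1 WT EV and 265, 381 and 641 CPM in S6K1 WT RAS. The groups overlapped, because replicate 3 was the highest culture in both, but Mmp2 was lower with RAS in 3 of 3 same-numbered pairs. The log2 fold change of -1.0 ± 0.47 (SE) did not pass (adjusted p = 0.213, edgeR) and passed with the replicate block (adjusted p = 0.000298, with a range of 0.000298 to 0.608 over the alternatives, edgeR). S6K1/S6K2 WT cells had Mmp2 at 3499, 1291 and 1469 CPM with EV and 744, 709 and 787 CPM with RAS. There the groups did not overlap and Mmp2 fell, with a log2 fold change of -1.48 ± 0.42 (standard error, adjusted p = 0.0272, edgeR). Without WT EV replicate 1, the culture at 3499 CPM, the log2 fold change was -0.89 (adjusted p = 0.0700), and with the replicate block the adjusted p was 0.0505. The call was also lost without any of the 3 WT RAS libraries in turn, with adjusted p up to 0.0910 (edgeR).

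Mmp14 (chr14:54431598-54442456), the membrane-type MMP that cuts collagen at the cell surface and activates pro-Mmp2, fell with little spread between cultures. It was at 1032, 1210 and 1260 CPM in S6K1 WT EV and 528, 573 and 663 CPM in S6K1 WT RAS. It was at 1199, 1363 and 1407 CPM with EV and 696, 710 and 697 CPM with RAS in the S6K1/S6K2 series. Every EV library was above every RAS library, and RAS cells kept 50.4% and 53.0% of the EV level. The log2 fold changes were -0.99 ± 0.15 (SE, adjusted p = 0.00250, edgeR) and -0.92 ± 0.13 (adjusted p = 0.00154, edgeR).

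Timp3 fell with RAS in both series, and Timp1 passed the test in the S6K1/S6K2 series. Timp3 (chr10:86300412-86349505), the inhibitor that stays bound to the matrix and also blocks ADAM and ADAMTS proteases, was at 1265, 1380 and 1129 CPM in S6K1 WT EV and 376, 417 and 465 CPM in S6K1 WT RAS. In the S6K1/S6K2 series it was at 1150, 860 and 880 CPM with EV and 379, 299.9 and 422 CPM with RAS. The groups did not overlap in either series, and Timp3 fell by 1.58 and 1.39 on the log2 scale (SE 0.30 and 0.22, adjusted p = 0.00789 and 0.00213, edgeR). Timp1 (chrX:20870166-20874737), a soluble inhibitor induced by growth factors and cytokines, was at 311, 183 and 288 CPM in S6K1 WT EV and 466, 386 and 322 CPM in S6K1 WT RAS. Timp1 was at 129, 221 and 293 CPM with EV and 523, 333 and 350 CPM with RAS in S6K1/S6K2 WT cells. The groups did not overlap in either series, but the highest EV library, at 311 and 293 CPM, lay close below the lowest RAS library, at 322 and 333 CPM. The log2 fold change of 0.59 ± 0.26 (SE) in the S6K1 series did not pass (adjusted p = 0.192, edgeR; 0.0225 with the replicate block, range 0.0225 to 0.455 over the alternatives). That of 0.91 ± 0.29 in the S6K1/S6K2 series passed at adjusted p = 0.0424 (edgeR) and was lost with the replicate block (adjusted p = 0.0651), with the 6 libraries of the comparison alone, and without WT EV replicate 1 or 2 or any WT RAS library (adjusted p up to 0.127). Per length, Timp1 made up 54.8% to 70.1% of the RNA of these 2 TIMPs in S6K1 WT EV and 86.4% to 91.9% in S6K1 WT RAS, and 50.7% to 75.4% against 88.4% to 92.7% in the S6K1/S6K2 series. The summed level of the 2 TIMPs overlapped between EV and RAS in both series. Timp2, a further TIMP that is not among the members, had the highest CPM of the 3, from 1742 to 3893 over the 18 libraries, and log2 fold changes of -0.20 ± 0.22 and -0.20 ± 0.17 (SE) that did not pass (adjusted p = 0.615 and 0.421, edgeR).

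The RAS effect was then compared between the series. None of the 10 members passed the test of the difference, and 0% of the 14483 genes tested did (edgeR, adjusted p under 0.05, with 1 of 10 members and 1819 genes at an unadjusted p under 0.05). The member at an unadjusted p under 0.05 was Mmp10, whose RAS effect was 2.64 ± 0.87 (SE) higher on the log2 scale in the S6K1/S6K2 series (adjusted p = 0.277). DESeq2 called 1 member, as did edgeR without the filter on low counts. Each genetic series has its own EV cultures, so a difference in cell source or handling and the genetic series cannot be told apart in this contrast.

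Loss of S6K1 was compared in cells with RAS. No member passed the test between KO RAS and WT RAS, where 0.00712% of genes did (edgeR, adjusted p under 0.05), and DESeq2 called none. Rps6kb1, the deleted gene, did not pass this edgeR test either, although every KO RAS library lay below every WT RAS library for it. A lack of a call here therefore does not show a lack of change. At an unadjusted p under 0.05 there were 2 members, Mmp3 and Mmp12, of 963 genes. The median log2 fold change of the members was -0.26, beside 0.03 for all genes. Mmp3 was at 772, 1097 and 727 CPM in KO RAS, against 1666, 2199 and 906 CPM in the same-numbered WT RAS cultures, with a log2 fold change of -0.88 ± 0.35 (standard error, adjusted p = 0.636, edgeR). Mmp12 was at 65.3, 68.7 and 38.2 CPM in KO RAS, against 183, 175 and 54.1 CPM in WT RAS, with a log2 fold change of -1.26 ± 0.53 (standard error, adjusted p = 0.677, edgeR). For both genes the KO libraries of replicates 1 and 2 lay below their WT RAS partners, replicate 3 differed least, and the groups overlapped.

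**Figure D4:**
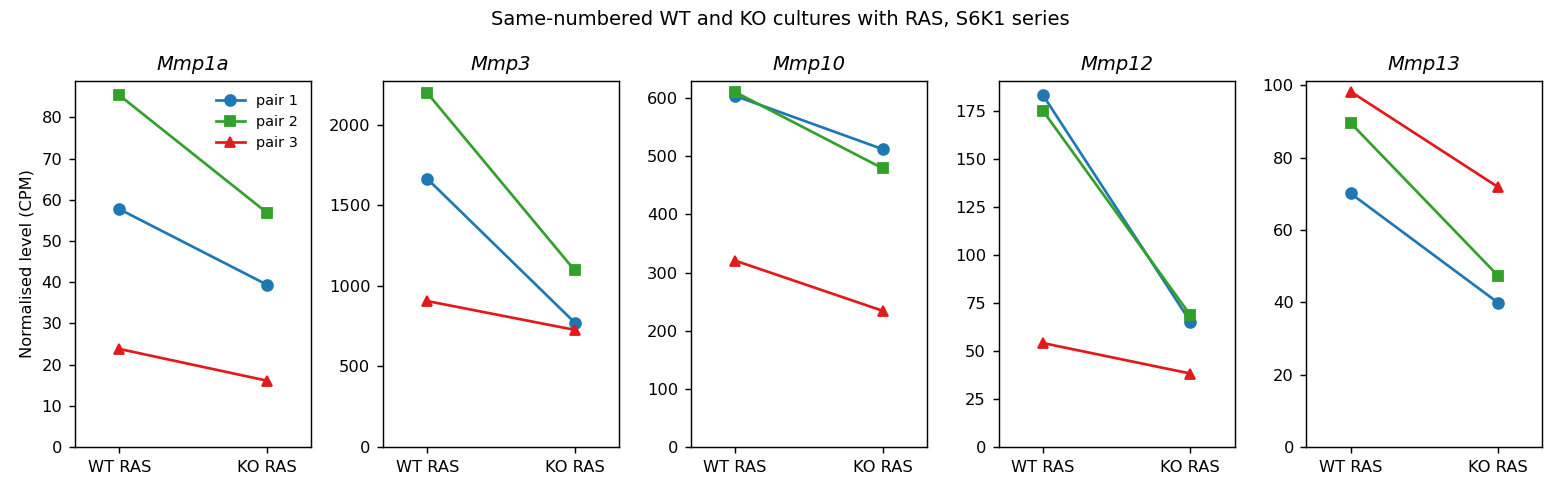
Levels (CPM, axes from 0) of the 5 members of the chromosome 9 cluster in same-numbered WT RAS and KO RAS cultures of the S6K1 series, joined by lines. All 15 lines go down from WT RAS to KO RAS, as for Mmp1a from 57.7, 85.3 and 23.8 to 39.4, 56.9 and 16.1 CPM.

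Since WT and KO embryos were littermates and same-numbered cultures deviated together, the comparison was also made with the replicate number as a block. Then 2 members passed, both as lower, and 4.15% of all genes did. Of the 583 genes that passed, 506 were lower and 77 higher in KO RAS, so lower was the common direction among all genes called. Mmp1a was at 39.4, 56.9 and 16.1 CPM in KO RAS, lower than its WT RAS partner in 3 of 3 pairs (log2 ratios of -0.55, -0.58 and -0.55), with a blocked log2 fold change of -0.57 (adjusted p = 0.0139, range 0.0139 to 1 over the alternatives, edgeR). Mmp12 was lower in 3 of 3 pairs, with a blocked log2 fold change of -1.13 (adjusted p = 0.0272, range 0.0272 to 1 over the alternatives, edgeR). Mmp3, Mmp10 and Mmp13 were also lower in 3 of 3 pairs but did not pass with the block (adjusted p = 0.187, 0.227 and 0.128, edgeR), so that each of the 5 cluster members was lower in each KO culture than in its partner. The share of all genes that were lower in 3 of 3 pairs was not determined. The 5 genes were measured in the same 3 pairs and are not independent. The macrophage markers were also lower in KO RAS: 17 of 18 passed as lower with the block and 18 of 18 were at an unadjusted p under 0.05 without it (edgeR), and their median log2 fold change was -2.17. Their part in the difference of Mmp12 was not tested. The remaining members showed no common direction. Mmp2 and Mmp14 were higher in 3 of 3 pairs, with log2 fold changes of 0.29 ± 0.46 and 0.19 ± 0.14 (SE), and Timp1, Timp3 and Mmp9 had pairs in both directions, with log2 fold changes of 0.13, -0.20 and -0.12 (adjusted p = 0.997 for each of these 5, edgeR). Timp3 was at 239 and 280 CPM in KO RAS replicates 1 and 2 and at 576 CPM in replicate 3, above every WT RAS library.

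Loss of both kinases gave no call either. None of the 10 members passed between DKO RAS and WT RAS in the S6K1/S6K2 series, none was at an unadjusted p under 0.05, and DESeq2 called none, where 0.0216% of genes passed and 179 were at an unadjusted p under 0.05 (edgeR). Mmp3 was at 1099, 1650 and 1788 CPM in DKO RAS, against 1345, 1223 and 665 CPM in WT RAS, with a log2 fold change of 0.49 (95% confidence interval -0.11 to 1.08). Mmp1a was at 51.4, 15.4 and 12.1 CPM in DKO RAS, against 15.5 to 23.3 CPM in WT RAS. Replicate 1 thus lay above all WT RAS libraries and replicate 3 below them, while replicate 2 was level with the lowest. Mmp10 was at 628, 419 and 256 CPM, Mmp12 at 29.5, 32.6 and 22.4 CPM, Mmp13 at 74.0, 103 and 136 CPM and Mmp9 at 16.7, 7.0 and 12.5 CPM in DKO RAS. All of these ranges overlapped those of WT RAS. The interval of the log2 difference ran from -0.61 to 1.06 for Mmp10, from -1.22 to 1.39 for Mmp12, from -0.29 to 0.31 for Mmp14 and from -2.46 to 0.96 for Mmp9, so that among these only the difference of Mmp14 was held within narrow limits. The macrophage markers had a median log2 fold change of -1.95 in this comparison, with 0 of 17 passing (2 at an unadjusted p under 0.05, edgeR). The difference between the series in the effect of loss passed for none of the members and 0.0069% of genes (edgeR). For Mmp3, the member at an unadjusted p under 0.05, it was 1.40 ± 0.47 (SE) on the log2 scale (adjusted p = 1.00, edgeR).

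**Figure D5:**
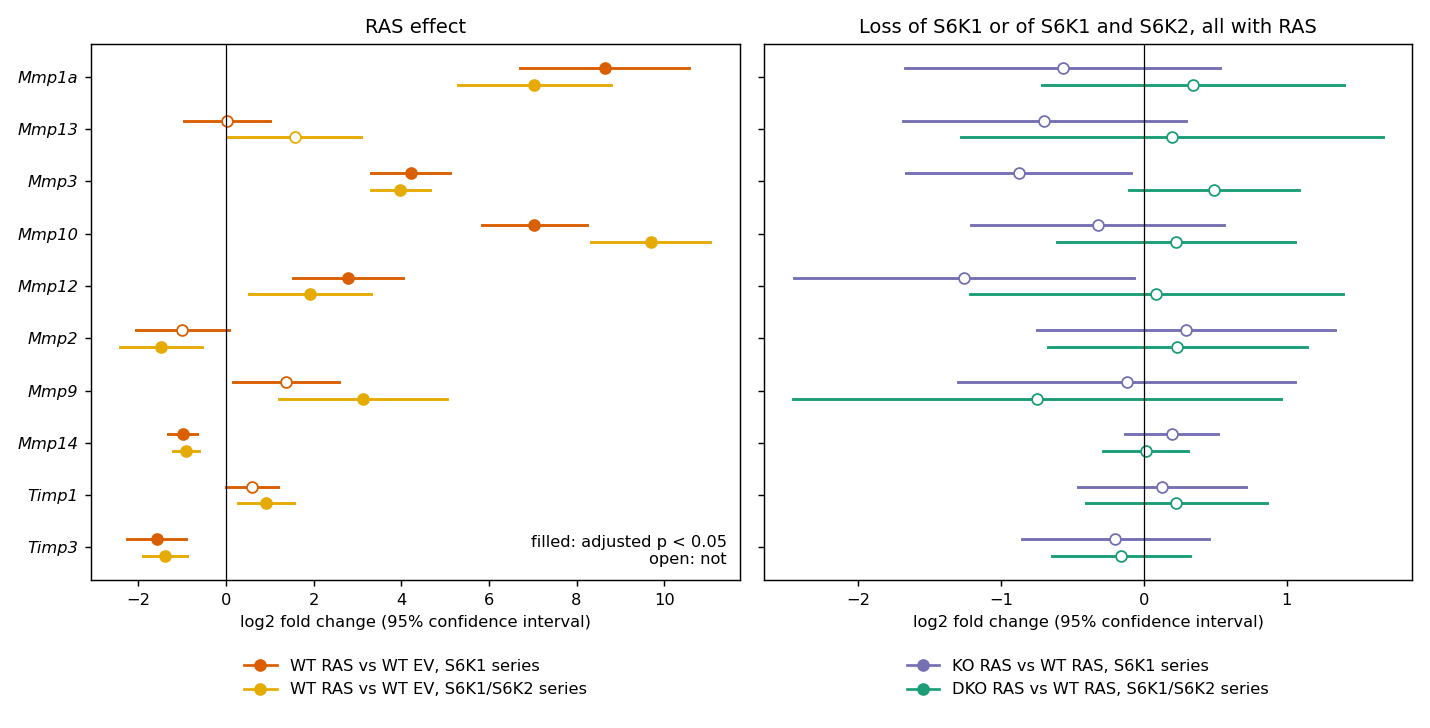
Fitted log2 fold change of each member with its 95% confidence interval (edgeR) for the RAS effect in WT cells (left) and for the loss of S6K1 or of both kinases in cells with RAS (right, on an axis of its own), where filled points passed the test. The RAS effects reach 9.69 for Mmp10, while no point for the loss of S6K lies beyond -1.26 or 0.49.

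KO and DKO cells with RAS were also set against WT EV cells of their series, which are the same EV libraries as above. In KO RAS, Mmp1a, Mmp3 and Mmp10 rose and Mmp14 and Timp3 fell, where 9.55% of genes rose and 8.56% fell (edgeR). With the replicate block 9 members passed, all but Mmp13, and 41.1% of genes did. In DKO RAS, 5 members rose, Mmp1a, Mmp3, Mmp10, Mmp12 and Timp1, and 2 fell, Mmp14 and Timp3, where 13.1% of genes rose and 12.6% fell (edgeR). The ratio of summed normalised counts for Mmp1a was 294 (126 to 906) in KO RAS and 177 (75.7 to 548) in DKO RAS. Mmp3 was 3.33 ± 0.38 and 4.46 ± 0.31 (SE) above EV on the log2 scale, and Mmp10 was 6.72 ± 0.52 and 9.91 ± 0.61 above it. Timp3 was 1.79 and 1.56 below EV (log2 fold changes of -1.79 and -1.56, SE 0.30 and 0.22). In DKO RAS the call of Mmp12 was lost without WT EV replicate 2 or 3 or any DKO RAS library (adjusted p up to 0.105, edgeR) and with the 6 libraries of the comparison alone (0.0558), and that of Timp1 without WT EV replicate 2 or DKO RAS replicate 1 (adjusted p up to 0.0632).

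Of 15 other MMP genes, 9 passed the filter in the S6K1 series, of which 1 rose and 4 fell with RAS (7.15% and 6.09% of all genes did), and 8 in the S6K1/S6K2 series, of which 1 rose and 1 fell (13.5% and 12.7% of all genes did). The gene that rose was Mmp1b in both. Mmp16, a membrane-type MMP, fell in both series (log2 fold changes of -1.58 ± 0.24 and -2.24 ± 0.24, SE, adjusted p = 0.00301 and 0.000345, edgeR). Mmp11, stromelysin 3, had a log2 fold change of -0.87 ± 0.17 in the S6K1 series, where it fell, and -0.01 ± 0.20 in the other (adjusted p = 0.00836 and 0.965, edgeR). Of the other chromosome 9 genes, Mmp7, Mmp8 and Mmp20 passed the filter on low counts in neither series, and Mmp27 passed it in the S6K1 series. Of 9 other inhibitors, 7 were tested in each series. Tfpi2, a Kunitz-type inhibitor of plasmin that also blocks MMPs, rose by 3.88 ± 0.51 and 6.43 ± 0.94 (SE) on the log2 scale (adjusted p = 0.00151 and 0.00149, edgeR), and Pcolce, an enhancer of procollagen processing, fell in both (log2 fold changes of -0.78 and -1.18, adjusted p = 0.00545 and 0.00184, edgeR). Reck, a membrane-anchored MMP inhibitor, fell in the S6K1/S6K2 series (by 0.86 ± 0.20 on the log2 scale, adjusted p = 0.0126, edgeR) and was at -0.65 ± 0.30 in the S6K1 series (adjusted p = 0.210).

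Among 17 activators and cell-surface partners of MMPs, 16 were tested, and with RAS 6 rose and 2 fell in the S6K1 series and 10 rose and 2 fell in the S6K1/S6K2 series, with median log2 fold changes of 0.49 and 0.95. Of all genes tested, 7.15% rose and 6.09% fell in the S6K1 series and 13.5% and 12.7% in the S6K1/S6K2 series, against which the counts of each list are to be read. Plau, the urokinase that starts plasmin-driven activation of MMPs, rose by 3.10 ± 0.35 and 3.84 ± 0.55 (SE) on the log2 scale, and Itgb3, an integrin subunit, rose by 2.62 ± 0.34 and 3.87 ± 0.36 (adjusted p between 0.000184 and 0.00148 for these 4 values, edgeR). Pcsk6, a proprotein convertase, fell in both (log2 fold changes of -1.66 and -2.02). Of the substrates, 15 of 16 genes were tested, and 0 rose and 8 fell in the S6K1 series and 2 rose and 7 fell in the S6K1/S6K2 series, with median log2 fold changes of -0.92 and -0.49. Fmod, the collagen-binding proteoglycan fibromodulin, had log2 fold changes of -6.93 ± 0.68 and -7.38 ± 0.75 (SE), and Eln, which encodes elastin, -3.26 ± 0.64 and -5.38 ± 1.06 (adjusted p between 0.000258 and 0.00996, edgeR). Of 27 ADAM and ADAMTS proteases, 23 and 24 were tested, and 1 rose and 6 fell, and 5 rose and 9 fell. Adamts5, an aggrecanase, fell in both (log2 fold changes of -2.83 ± 0.38 and -2.47 ± 0.30, SE, adjusted p = 0.00156 and 0.000688, edgeR), and Adam8 rose in the S6K1/S6K2 series (1.77 ± 0.26, adjusted p = 0.00162, edgeR). No gene of these 5 lists passed between KO RAS or DKO RAS and WT RAS (edgeR, with 3 and 0 genes at an unadjusted p under 0.05 over all lists). With the replicate block, 4 of their genes passed between KO RAS and WT RAS, where 4.15% of all genes did, 506 as lower and 77 as higher. Spock3 was higher (log2 fold change 0.82), and Adam8, Adam33 and Ctsk were lower (-0.62, -0.88 and -0.45, adjusted p between 0.0164 and 0.0411 for the 4, edgeR).

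Likeness between genes was described by Pearson's r of their deviations from the 6 group means (log2 CPM) over the 18 libraries, among 14483 genes. The 3 genes most like Mmp9 were Creg2 (r = 0.947), Cd33 (0.933) and Mrc1 (0.926), and those most like Mmp12 were 1810011H11Rik (0.957), Aim2 (0.954) and Renbp (0.948). Cd33 and Mrc1 are known from macrophages and related myeloid cells. The genes most like Mmp1a were Stra6 (0.889), Prl2c1 (0.883) and Wdr43 (0.879), and those most like Mmp3 were C330005M16Rik (0.871), Slc35d3 (0.856) and Epcam (0.792). Mmp2 was closest to Gata2 (0.964), Mmp10 to Nol10 (0.930), Mmp13 to Rgs17 (0.963), Mmp14 to Crocc (0.979), Timp1 to Ociad2 (0.982) and Timp3 to Pcdh18 (0.913). These are the highest of many values, and libraries of the same number can share a source of cells.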

How the data were processed

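RNA-seq of 18 MEF cultures in 6 groups of 3 was analysed from the table of raw counts per gene identifier that the authors deposited. Per the study's methods, reads were aligned with TopHat to mm9 and counted with HTSeq. The submitters' processing notes name CASAVA, STAR 2.7.1a, mm10 and DESeq2 1.28.1, and which of these made the table was not settled here. Positions and promoters are from RefSeq (GRCm38.p6) and describe the genes, not how reads were counted. Identifiers were matched to symbols, which 99.1% of counts had, and exon lengths are from GENCODE M1. Total counts were 8319445 to 14402442 per library, which sets the precision. A count of 0 allows up to 3 counts, and counting intervals and floors cover counting error only.

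Each series was fitted over its 9 libraries with edgeR 4.0.16 in R 4.3.3 (filterByExpr with a minimum count of 10, TMM, quasi-likelihood test), and Benjamini-Hochberg adjustment was made over all genes tested. CPM values are TMM-normalised. Differences between series were fitted over all 18 libraries. Shares and sums were compared with exact two-sided permutation tests. Alternatives were DESeq2 1.42.0, edgeR with DESeq2's size factors or upper-quartile scaling, all genes unfiltered, a minimum of 10 counts in each library, 6 libraries in the fit, the replicate number as a block, and each library left out. The procedure was tested on simulated counts with the same spread for every gene and no effect shared by same-numbered cultures. That test does not show how the procedure does with replicates that spread like those here. No pair of replicates agreed within sampling noise (lowest chi-square per degree of freedom 7.98 over 18 pairs).

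EV and RAS cultures of a number carry the same WT number in the labels. Deviations of same-numbered cultures from their group means correlated at 0.725, 0.467 and 0.679 between RAS and EV in the S6K1 series. The values were 0.370, 0.291 and 0.321 in the S6K1/S6K2 series, and 0.725, 0.419 and 0.630 between KO RAS and WT RAS. Cultures in these comparisons were treated as pairs. Unlike-numbered cultures were not correlated, so the values have no reference and do not by themselves decide the pairing. For MEFs transduced with EV or RAS, the study describes independent pairs of embryos from different mothers as replicates. The labels do not tie single libraries to embryos.

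The members and gene lists were chosen with earlier results of these data known. Besides the 10 members, genes of each list were named from those that passed the test with a mean count of at least 100 and no overlap between groups. Up to 3 by size of change in each direction qualified, and not all of these are named. As likeness, up to 3 genes with the highest r were named for each member. Genes named outside this rule (Mmp1b, the values of Mmp11 and Reck in the other series, Timp2, Spock3, Adam33, Mmp7, Mmp20 and marker genes) were chosen after their values were seen. Comparisons of RAS with EV and of KO or DKO with WT share the WT RAS libraries, and those of KO or DKO RAS with EV share the EV libraries.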

Additional observations from a re-analysis of the deposited data

How the results depend on the processing

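Mmp1a, Mmp3, Mmp10, Mmp14 and Timp3 kept their direction and their call between RAS and EV in both series under every alternative that gave a value. Requiring 10 counts in every library gave no value for Mmp1a in either series or for Mmp9 and Mmp10 in the S6K1/S6K2 series. In the S6K1/S6K2 series the number of members called ranged from 5 to 9 as each library was left out, with 5 without WT RAS replicate 1. With the replicate block, 2 members passed between KO RAS and WT RAS instead of 0, and 9 instead of 5 between KO RAS and EV, where 8 passed with no filter. The difference between series in the RAS effect was called for 1 member with no filter and for 1 with DESeq2. Over all genes, the block moved the calls from 1859 to 5085 (RAS, S6K1 series), from 1 to 583 (KO RAS against WT RAS) and from 2542 to 5766 (KO RAS against EV). DKO RAS and WT RAS cultures of a number correlated at 0.271, 0.472 and -0.042. Per the study's methods their embryos came from different stages of breeding, so they share only a number. The block called 0 members between them.

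Values that changed sign did so when a library was left out, and their log2 fold changes then ranged as follows. For RAS in the S6K1 series, Mmp13 ran from -0.26 to 0.81, and for KO RAS against EV from -0.97 to 0.11. For KO RAS against WT RAS, Mmp9 ran from -0.55 to 0.19, Timp1 from -0.14 to 0.31, Timp3 from -0.69 to 0.0196 and Mmp2 from -0.15 to 0.70. For DKO RAS against WT RAS, Mmp9 ran from -1.07 to 0.20, Mmp12 from -0.22 to 0.66, Mmp1a from -0.59 to 0.70, Mmp10 from -0.14 to 0.50, Mmp14 from -0.0612 to 0.0766 and Mmp13 from -0.0432 to 0.39. None of these passed the test, and the cause was not tested. Depth limits the folds of Mmp1a and, in the S6K1/S6K2 series, of Mmp10, which rest on 1 to 11 counts per EV library.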

Other observations

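Of 6 genes known as epithelial markers, Krt8, Krt18 and Epcam rose with RAS. The summed level of the 6, which is mostly Krt18, was 4.76 to 10.2 CPM in S6K1 WT EV and 109 to 150 CPM in S6K1 WT RAS, and 1.33 to 4.02 CPM against 79.2 to 120 CPM in the S6K1/S6K2 series. The 3 that rose did so in both series (edgeR, adjusted p under 0.05), and Cdh1, Krt5 and Krt14 did not pass the filter on low counts. Cdh1 had 8, 8 and 2 counts in S6K1 WT EV and 6, 9 and 7 in S6K1 WT RAS, and Krt14 had 9, 0 and 2 in S6K1/S6K2 WT EV and 0 in each S6K1/S6K2 WT RAS library. Krt18, an intermediate filament protein of simple epithelia, rose by 4.32 ± 0.32 and 5.73 ± 0.56 on the log2 scale (SE, adjusted p = 0.000127 and 0.000222, edgeR), and was the most abundant. Between KO RAS or DKO RAS and WT RAS none of the 3 passed.

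Of 8 genes known as neutrophil markers, Ly6g and S100a8 rose with RAS in both series, while Mpo had 0 counts in every library and S100a9 at most 1. Csf3r did not rise, with 29, 19 and 5 counts in S6K1 WT EV and 10, 8 and 5 in S6K1 WT RAS. Of 12 fibroblast markers, 1 rose and 4 fell in the S6K1 series, where 7.15% of all genes rose and 6.09% fell. In the S6K1/S6K2 series 0 rose and 5 fell, where 13.5% of all genes rose and 12.7% fell. Of 5 muscle markers, 4 had 3 counts or fewer in every library, and 2 of 9 chondrocyte and osteoblast markers did. Of 6 endothelial markers, Cdh5 rose in both series, from 1, 2 and 0 counts to 33, 53 and 17 in the S6K1 series and from 0, 1 and 0 to 27, 31 and 19 in the S6K1/S6K2 series, and Tek fell by 2.01 ± 0.57 (SE) on the log2 scale in S6K1/S6K2 WT cells (adjusted p = 0.0285, edgeR). The endothelial markers summed to 7.79 to 14.5 CPM over all 18 libraries.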
